A study of Homo sapiens with 44 samples.

Results

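The effect of lowering EZH2 was set beside the effect of lowering RelB in MDA-MB-231 cells, gene by gene, for the 11622 genes tested in both comparisons, out of 58735 genes in the deposited count table and 27315 symbols in the deposited variance-stabilised table. MDA-MB-231 is an established human triple-negative breast cancer line with a mesenchymal character. Cells received 20 nM of a small interfering RNA (siRNA) and were harvested after 48 h. One experiment compared siEZH2 with a control siRNA, in MDA-MB-231 and also in SUM149, an inflammatory breast cancer line. The other used MDA-MB-231 alone and compared siRelB, and also siRelA, with its own control siRNA. Each group had 2 libraries, so the effects compared are differences among 8 of the 14 RNA libraries of a series of 44 samples. The spread behind the tests was estimated over all libraries of each experiment, which adds 4 SUM149 libraries for siEZH2 and 2 siRelA libraries for siRelB. The labels name biological replicates only by number, so p-values measure the spread between these libraries. The comparisons share no library. Per the labels, the libraries of the siRelB experiment were prepared by a commercial provider and those of the siEZH2 experiment at a university facility, and the reads were counted with different tools. Whether both experiments used the same control siRNA is not given in the sources used here, and a difference between the experiments cannot be told apart from a difference between the knockdowns.

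EZH2 is the methyltransferase of Polycomb repressive complex 2 (PRC2), which methylates histone H3 and keeps developmental genes silent. RelB is a subunit of the transcription factor NF-kB and works mainly in the non-canonical arm, where the kinase NIK, encoded by MAP3K14, drives the processing of the NFKB2 precursor to the partner of RelB. EZH2 has also been described as a partner of NF-kB subunits in breast cancer cells lacking hormone receptors, apart from its methyltransferase role.

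Levels are normalised counts, that is, reads scaled for library depth. For siEZH2 they were recovered from the variance-stabilised values, and a change under siEZH2 is a difference on that log2-like scale, which understates the fold of genes with few reads. A change under siRelB is the log2 fold change of edgeR. The test of the difference between both effects used 1 common variance-stabilised scale, on which an equal fold gives a smaller difference at a lower level, so that where the controls of both experiments differ a called difference need not be a difference in fold. A gene was called at an adjusted p under 0.05, and each ± is a standard error of the fit with n = 2 libraries per group.

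Depth was 18.6 to 24.4 M counts per library in the siRelB experiment. Of the line's listed markers, VIM, CD44, AXL, CAV1, MSN and EGFR were high in all 8 libraries. ESR1, PGR and CDH1, listed as low, stayed at 24.5 normalised counts or less. Other members went against the list. KISS1, listed as high, had 11.6 to 95.1, and EPCAM (270 to 1410), ERBB2 (1520 to 2360) and GATA3 (77 to 341), listed as low, were present. CD3E and HBA1 were at 0. The summed level of the 9 haematopoietic markers was 1500 to 1790 in the siEZH2 controls and 3480 to 3580 under siEZH2, most of it CD68, and 192 to 279 in the siRelB experiment. The 8 fibroblast markers summed to 298 to 454 in the siEZH2 experiment and 664 to 922 in the siRelB experiment, with POSTN and DCN at or near 0. The 8 keratin and luminal genes listed as markers of SUM149 summed to 554 to 609 in the siEZH2 controls and 1120 to 1370 under siEZH2, and to 2270 to 2500 in the siRelB controls and 3650 to 4130 under siRelB. Most of that sum was KRT81, and KRT14 and ELF5 were at 0. The part of these markers in the results was not tested.

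Genes that responded to both knockdowns moved apart more often than together. Under siEZH2, 3549 of the joined genes rose (30.5%) and 3233 fell (27.8%). Under siRelB, 1098 rose (9.45%) and 1592 fell (13.7%). Both knockdowns changed 1755 genes, or 15.1% of all, of which 760 moved in the same direction (43.3%) and 995 in opposite directions (56.7%). These shares over all joined genes are the ones to set beside the counts within gene lists below. The most frequent pattern was a rise under siEZH2 with a fall under siRelB, in 651 genes. A further 413 genes fell in both, 347 rose in both, and 344 fell under siEZH2 and rose under siRelB.

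**Figure D1:**
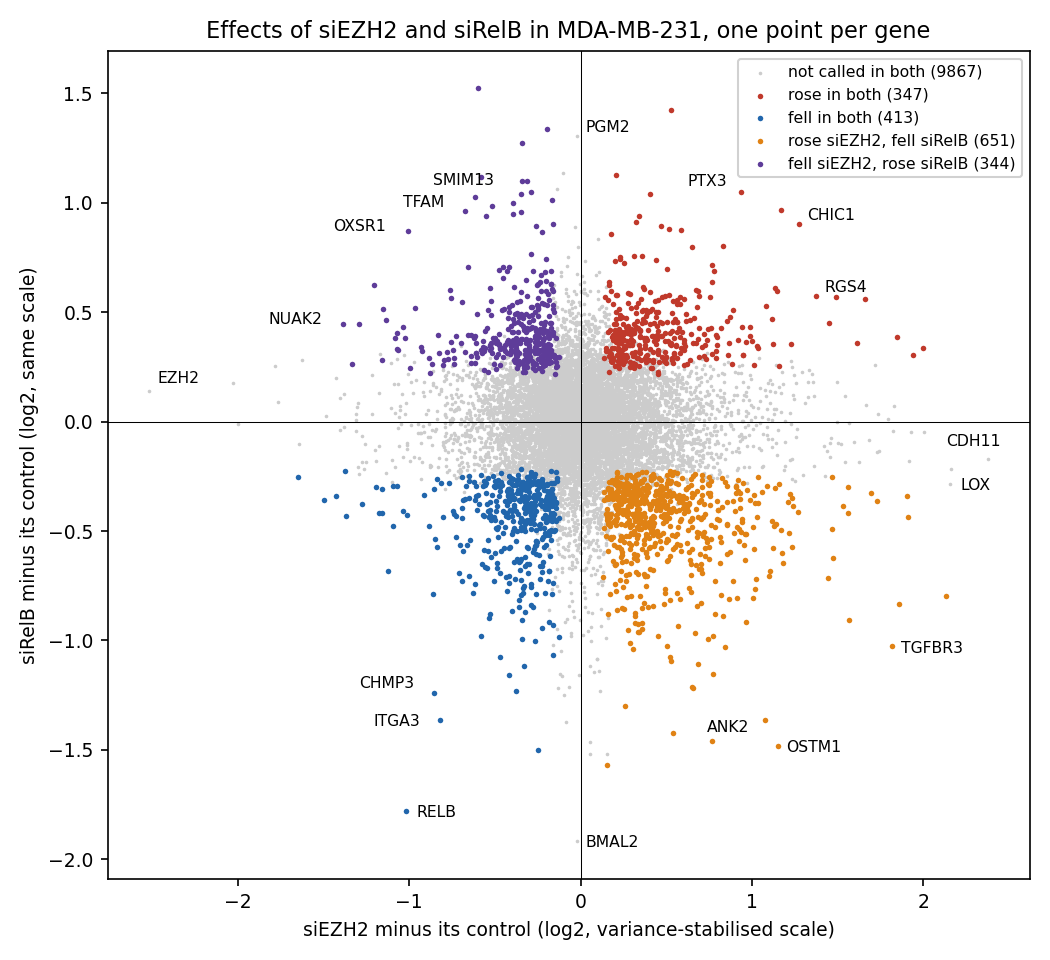
Each point is 1 of 11622 genes, with the siEZH2 effect on the horizontal and the siRelB effect on the vertical axis, both as log2 differences on 1 variance-stabilised scale. Colours mark the 4 classes of genes called in both comparisons, and the lower right class, with TGFBR3 and OSTM1 at its edge, is the largest at 651 genes.

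Read from the siEZH2 side, 18.3% of the genes that rose under siEZH2 fell under siRelB, against 13.7% of all joined genes. Of the genes that fell under siEZH2, 12.8% fell under siRelB, and of those not called under siEZH2, 10.9% did. The share that rose under siRelB varied less, at 9.78%, 10.6% and 8.41% in the same order of siEZH2 rise, fall and no call. Read from the siRelB side, 40.9% of the genes that fell under siRelB rose under siEZH2 and 25.9% fell. Across all genes, which are not independent replicates, the effects had a Pearson r of -0.067 and a Spearman rho of -0.058 on the common scale.

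**Figure D2:**
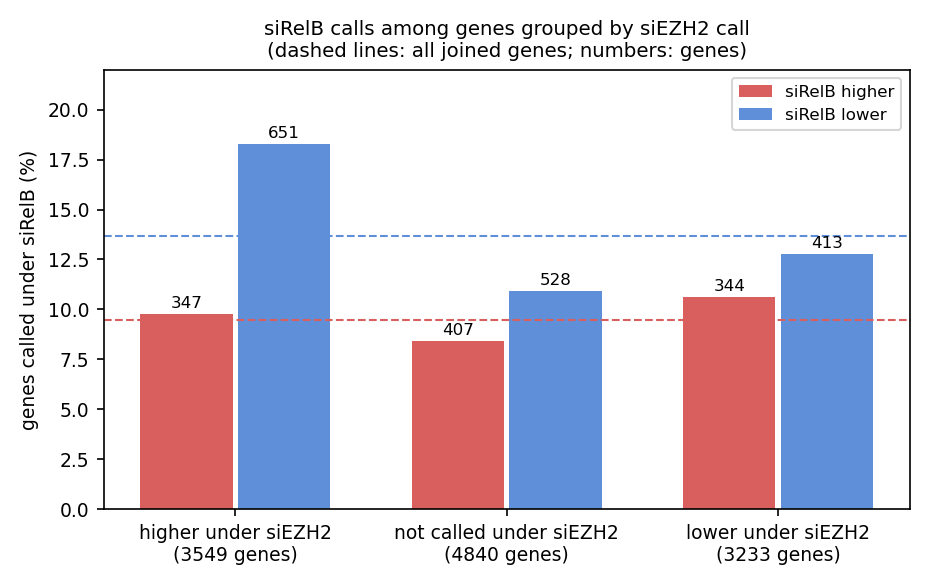
Bars give the percentage of genes called higher or lower under siRelB among genes that rose, were not called or fell under siEZH2, with the number of genes on each bar and dashed lines at the share among all joined genes. The bar for a fall under siRelB among genes that rose under siEZH2, at 18.3%, stands above its line at 13.7%.

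The difference between both effects was itself called for 5551 genes (47.8%), 3047 with the higher effect under siEZH2 and 2504 with the lower. All 995 genes of the opposite classes were among them. This follows largely from how those classes were chosen, by called effects of opposite sign in the same libraries, and is no separate support. The same test called 88 of the 347 genes that rose in both, 61 with the larger rise under siEZH2 and 27 with the larger rise under siRelB, a split that was 54 to 45 on the fold scale of edgeR with recovered counts. It called 140 of the 413 genes that fell in both, and there the larger fall was more often under siRelB, in 96 genes against 44 (84 against 50 on the fold scale). Most shared changes were small on these scales. The median size among the genes that rose in both was 0.38 under siEZH2 (variance-stabilised) and 0.53 under siRelB (edgeR). A change of at least the log2 of 1.5 in both was reached by 32 of them. It was also reached by 21 of the genes that fell in both, 92 of those that rose under siEZH2 and fell under siRelB, and 17 of the reverse pattern. For siEZH2 this cut applied to the variance-stabilised difference, so genes above 1.5-fold in normalised counts can fall short of it.

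The 4 class counts depended on the control libraries of the siRelB experiment. Without replicate 2 of that control, 185 genes rose in both, 235 fell in both, 387 rose under siEZH2 and fell under siRelB, and 162 did the reverse. Without its replicate 1, 185 rose in both and 168 fell under siEZH2 and rose under siRelB. Without siRelB replicate 1 the last class held 229 genes, and without siRelB replicate 2 it held 225 and the genes that rose in both numbered 228. In every one of the 8 fits that left out 1 library, 88, 135, 268 and 81 genes kept their class, in the order rose in both, fell in both, rose under siEZH2 and fell under siRelB, and the reverse.

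RELB, the target of siRelB, headed the genes that fell in both. It lies on chromosome 19 at 45001461 to 45038192 of GRCh38. RELB had 632 and 589 normalised counts in the siEZH2 controls and 184 and 206 under siEZH2, 3.13-fold lower (-1.02 ± 0.08, limma adjusted p = 1.7e-07). In the other experiment it had 860 and 875 in the controls and 104 and 116 under siRelB, 7.9-fold lower (-2.98 ± 0.16, edgeR adjusted p = 6.4e-09). The fall of RELB was larger under its own siRNA by 0.76 ± 0.12 on the common scale (limma adjusted p = 2.2e-05). RELB also fell under siEZH2 in SUM149 (-0.50, limma adjusted p = 0.00011). EZH2 was not called under siRelB. It had 3022 and 3020 normalised counts in its controls against 368 and 298 under siEZH2, and 2429 and 2308 against 2646 and 2625 under siRelB, a change of 0.16 ± 0.09 under siRelB (edgeR adjusted p = 0.24).

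Around RELB, the rest of the NF-kB system was split. NFKB2, whose product is the partner of RelB, had 2112 and 2241 normalised counts in the siEZH2 controls and 1735 and 1705 under siEZH2, and 2599 and 2215 against 3202 and 3588 under siRelB. It fell under siEZH2 (-0.30 ± 0.07) and rose under siRelB (0.50 ± 0.10), a difference of -0.75 ± 0.11 (limma adjusted p = 1.9e-05). The rise of NFKB2 did not pass without replicate 2 of the siRelB control (0.38). MAP3K14, the kinase upstream, went the same way. It fell from 3787 and 4181 to 3147 and 2786 under siEZH2, and rose from 1393 and 1510 to 3059 and 3263 under siRelB. TBK1, a kinase of innate immune signalling, fell in both, by 0.34 ± 0.06 under siEZH2 and by 1.34 ± 0.13 under siRelB. NFKB1, the canonical precursor, fell under siEZH2 (-0.63 ± 0.05), and its change under siRelB was -0.32 ± 0.11 (edgeR adjusted p = 0.053), which passed without siRelB replicate 2 (-0.46). RELA and REL were called in neither comparison.

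Of 17 tested NF-kB subunits and kinases, 2 rose and 8 fell under siEZH2 and 3 rose and 3 fell under siRelB, with medians of -0.08 and -0.04, and 5 were called in both. Over all joined genes the siEZH2 median was 0.007, and the siRelB median on the common scale was -0.003. The fifth of them, TRAF2, an adaptor that restrains NIK, fell under siEZH2 (-0.47 ± 0.08) and rose under siRelB (0.31 ± 0.10), but this rise passed in none of the 4 fits without siRelB replicate 1 or 2 or their control replicate 1 or 2 (0.27 to 0.33). Of 25 inhibitors and feedback genes of NF-kB, 5 were called in both: NFKBIE, ICAM1 and TNFAIP3 fell under siEZH2 and rose under siRelB, PTX3 rose in both and SDC4 fell in both. NFKBIE, an inhibitor that holds NF-kB in the cytoplasm, had 1693 and 1791 normalised counts against 1119 and 1287 under siEZH2, and 1226 and 1233 against 1809 and 1907 under siRelB. ICAM1, an adhesion receptor for leukocytes, changed by -0.32 ± 0.06 and 0.70 ± 0.16, and its rise was lost without replicate 1 of the siRelB control (0.64).

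Cytokines showed both patterns. Of 16 tested, 5 were called in both, while 2 rose and 8 fell under siEZH2 and 3 rose and 4 fell under siRelB. CSF1, the growth factor of macrophages, had 5751 and 6099 normalised counts in the siEZH2 controls and 10683 and 9849 under siEZH2, against 9775 and 10486 in the siRelB controls and 3484 and 3536 under siRelB. Its effects differed by 2.22 ± 0.09 (limma adjusted p = 5.9e-13), with a rise under siEZH2 in SUM149 as well (1.38). IL11, a cytokine of the IL-6 family, did the reverse (-0.39 ± 0.07 and 0.78 ± 0.14). IL6 had 580 and 636 normalised counts against 227 and 213 under siEZH2, and 207 and 223 against 269 and 372 under siRelB. IL6 fell by 0.92 ± 0.07 under siEZH2, while its rise of 0.58 ± 0.20 was near the threshold (edgeR adjusted p = 0.048) and was lost with DESeq2 (0.58), without siRelB replicate 2 (0.31) and without its control replicate 1 (0.52) or 2 (0.63). CCL28, a chemokine of mucosal tissue, fell in both, from 283 and 275 to 127 and 125 and from 170 and 157 to 59 and 40.

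**Figure D3:**
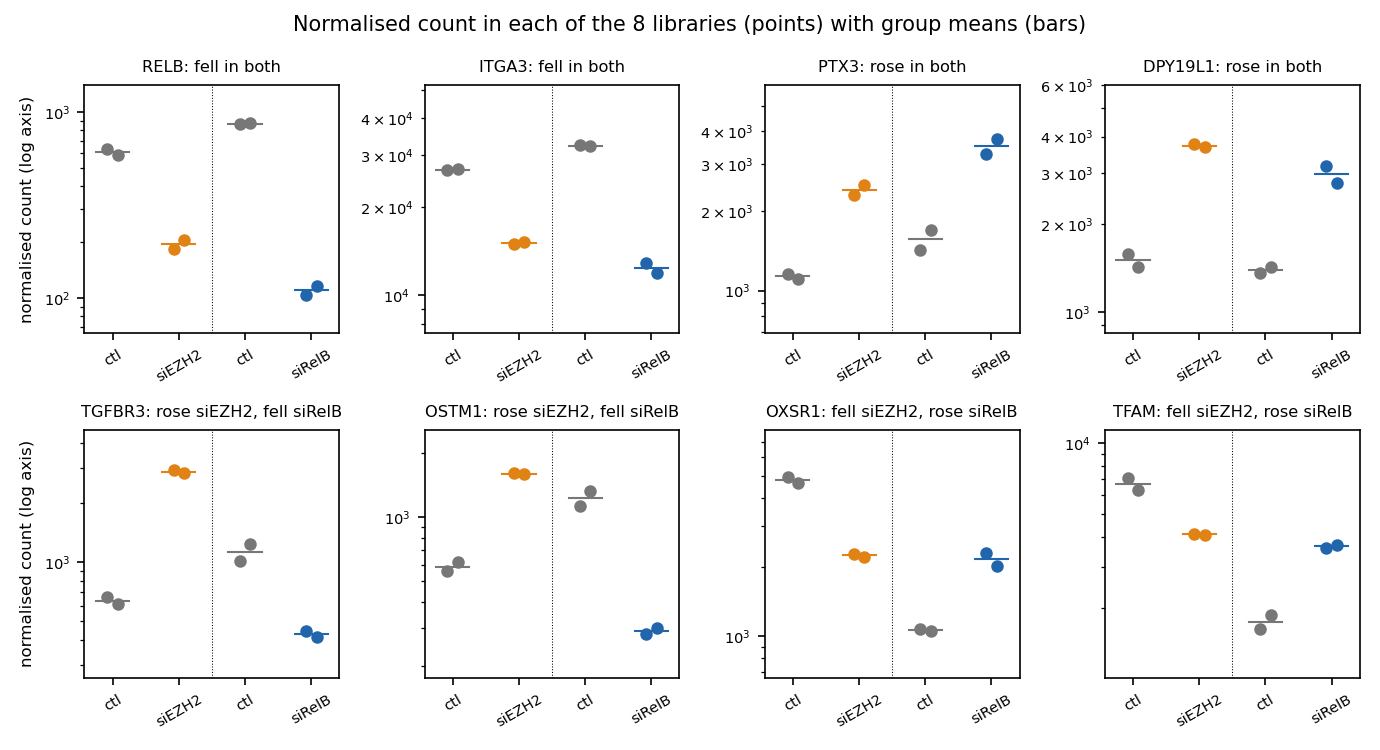
Each panel gives 1 gene's normalised count on a log axis in the 8 libraries, with siEZH2 and its control left of the dotted line and siRelB and its control right of it; points are libraries and bars group means. RELB and ITGA3 fell in both, and PTX3 and DPY19L1 rose in both. TGFBR3 and OSTM1 rose under siEZH2 and fell under siRelB, and OXSR1 and TFAM did the reverse.

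The genes with the largest shared rises included DPY19L1, PTX3, NACC2, SESN3, POLR3G, RGS4, SYNPO and CHIC1, and none of these 8 lost a call when 1 library was left out. CHIC1 had 199 and 223 normalised counts against 868 and 772 under siEZH2 (3.89-fold), and 130 and 153 against 422 and 448 under siRelB (3.07-fold). DPY19L1 rose 2.46-fold and 2.13-fold, and its effects did not differ by the test (0.20 ± 0.11, limma adjusted p = 0.14). PTX3, a secreted pattern recognition protein of innate immunity, had 1157 and 1108 against 2304 and 2508 under siEZH2 and 1430 and 1693 against 3275 and 3744 under siRelB. Under siRelA, whose comparison shares its control libraries with siRelB, PTX3 fell (-1.04, edgeR adjusted p = 8.3e-06). RGS4, a brake on G protein signalling, rose more under siEZH2, from 310 and 332 to 1162 and 1241, than under siRelB, from 318 and 323 to 559 and 611 (difference 0.80 ± 0.10, limma adjusted p = 3.2e-06). NACC2, a transcriptional repressor, rose by nearly the same amount in both (0.83 ± 0.07 and 0.93 ± 0.09). POLR3G, a subunit of RNA polymerase III, and SESN3, a stress-responsive sestrin, rose by 0.76 ± 0.06 and 0.87 ± 0.06 under siEZH2 and by 1.01 ± 0.17 and 1.05 ± 0.18 under siRelB.

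After RELB, the genes with the largest shared falls were CHMP3, ITGA3, TMEM45A, LCP1, ASB2, PTPN21 and AKAP12. ITGA3, the alpha chain of a laminin-binding integrin, had 26561 and 26949 normalised counts against 14964 and 15140 under siEZH2, and 32426 and 32120 against 12891 and 11918 under siRelB. The fall of ITGA3 was larger under siRelB (difference 0.54 ± 0.10, limma adjusted p = 9.9e-05), and in SUM149 it rose under siEZH2 (0.36, limma adjusted p = 4.9e-05). CHMP3, a subunit of the membrane-cutting ESCRT-III complex, fell 1.89-fold and 2.7-fold. ASB2, a ubiquitin ligase subunit, had 194 and 219 against 79 and 71, and 94 and 128 against 17 and 12. LCP1, which bundles actin, fell from 337 and 356 to 141 and 145 and from 170 and 167 to 36 and 89. The scaffold AKAP12 and the phosphatase PTPN21 fell by 0.69 ± 0.06 and 0.62 ± 0.08 under siEZH2 and by 0.91 ± 0.11 and 0.93 ± 0.10 under siRelB. TMEM45A lost its siRelB call without control replicate 2 (-1.03) and without siRelB replicate 1 (-0.89).

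Among genes that rose under siEZH2 and fell under siRelB, TGFBR3, OSTM1, ANK2, CPED1, SYNE3 and HSD3B7 had the largest changes, and none of the 6 lost a call when a library was left out. TGFBR3, the co-receptor betaglycan of TGF-beta, lies on chromosome 1 at 91680343 to 91906335. It had 661 and 610 normalised counts in the siEZH2 controls and 2931 and 2821 under siEZH2 (4.53-fold), and 1015 and 1226 in the siRelB controls and 444 and 413 under siRelB (2.62-fold lower). OSTM1, a partner of a lysosomal chloride transporter, had 559 and 615 against 1614 and 1593, and 1133 and 1328 against 282 and 303. ANK2, an ankyrin that links membrane proteins to the cytoskeleton, had 113 and 116 against 440 and 469, and 457 and 520 against 83 and 71. The effects differed by 2.85 ± 0.12 for TGFBR3, 2.64 ± 0.11 for OSTM1 and 2.44 ± 0.13 for ANK2. SYNE3, which ties the nucleus to intermediate filaments, and HSD3B7, an enzyme of bile acid synthesis, rose by 1.03 ± 0.07 and 0.96 ± 0.07 and fell by 1.08 ± 0.15 and 1.05 ± 0.17.

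The reverse pattern was led by OXSR1, TFAM, PITHD1, NUAK2, E2F5 and SMIM13, again with no call lost in any fit that left out a library. OXSR1, a kinase of cell volume control, had 4943 and 4617 normalised counts against 2286 and 2210 under siEZH2, and 1074 and 1056 against 2299 and 2029 under siRelB. TFAM, which packages and transcribes mitochondrial DNA, had 7093 and 6331 against 4137 and 4077, and 1634 and 1871 against 3606 and 3709. For both genes the controls of the siEZH2 experiment were far above those of the siRelB experiment, so each knockdown moved the level toward that of the other experiment's control. Both experiments were counted with different tools and scaled separately, and the part of this in the gap between the controls was not tested. NUAK2, a kinase related to AMPK, fell from 477 and 438 to 77 and 53 and rose from 128 and 128 to 239 and 241. E2F5, a repressor of the E2F family, changed by -0.75 ± 0.07 and 0.91 ± 0.16, and its siEZH2 fall was also called in SUM149 (-0.74).

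The control levels were not matched in general. Genes that fell under siEZH2 and rose under siRelB had a median of 1939 normalised counts in the siEZH2 controls and 919 in the siRelB controls, against 972 and 796 over all joined genes. Genes that rose under siEZH2 and fell under siRelB had 1085 and 1484. The medians of the genes that rose in both were 787 and 808. The part of this difference between the controls in the opposite classes was not tested.

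Among matrix, TGF-beta pathway and integrin genes called in both, a rise under siEZH2 with a fall under siRelB was the most frequent of the 4 patterns. It was also the most frequent over all joined genes, in 651 of the 1755 called in both, and whether these lists depart from that was not tested. Of 29 collagens and matrix genes, 12 were called in both, and 6 of them had this pattern, while 5 of the 12 kept both calls in every fit that left out 1 library. FBN1, the fibrillin of microfibrils, had 352 and 297 normalised counts against 1010 and 1025 under siEZH2, and 610 and 635 against 376 and 296 under siRelB. COL13A1, a transmembrane collagen, changed by 1.01 ± 0.06 and -0.65 ± 0.10 and COL8A1 by 0.86 ± 0.09 and -0.57 ± 0.10. The list's medians were 0.45 under siEZH2 and -0.14 under siRelB. COL12A1 did the reverse (-0.43 ± 0.06 and 0.75 ± 0.09), and HAS2, which makes hyaluronan, fell in both (-0.32 ± 0.07 and -1.89 ± 0.23).

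Of 31 genes of the TGF-beta and BMP pathway, 15 rose and 6 fell under siEZH2 and 4 rose and 10 fell under siRelB. Of the 10 called in both, 6 rose under siEZH2 and fell under siRelB, among them SMURF2, a ubiquitin ligase for pathway members (0.82 ± 0.05 and -0.58 ± 0.08), and LTBP1, which holds latent TGF-beta in the matrix (1.04 ± 0.06 and -0.49 ± 0.14). The fall of LTBP1 was lost without siRelB replicate 2 (-0.48) and without control replicate 1 (-0.48) or 2 (-0.53). TGFBR1, a kinase receptor of TGF-beta, lost its siRelB call without siRelB replicate 2 (-0.27) or control replicate 2 (-0.23), and LTBP2 without siRelB replicate 2 (-0.35) or control replicate 1 (-0.43). BMPR2, a BMP receptor, lost its siEZH2 call without siEZH2 control replicate 1 (0.25) or 2 (0.17) or siEZH2 replicate 1 (0.08), and its siRelB call without siRelB replicate 2 (-0.30) or its control replicate 2 (-0.39). SMURF2 and TGFBR3 were the 2 of these 6 that kept both calls throughout. ID1, a target of BMP signalling, rose in both, and ID3 fell under siEZH2 and rose under siRelB, from 567 and 627 to 316 and 388 and from 181 and 151 to 549 and 508. Of 17 integrins, 6 were called in both and 4 of these kept both calls when 1 library was left out. ITGA6 had 15230 and 13919 normalised counts against 26759 and 26794 under siEZH2, and 14105 and 15525 against 8782 and 7901 under siRelB. ITGA2, a collagen receptor chain, changed by 0.57 ± 0.06 and -1.02 ± 0.11, and ITGB8 had 40 and 47 against 136 and 129, and 52 and 41 against 13 and 2.17.

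Of 20 mesenchymal genes and factors of epithelial-mesenchymal transition, 14 rose and 3 fell under siEZH2, against 30.5% and 27.8% of all joined genes. Under siRelB 0 rose and 6 fell, against 9.45% and 13.7%. No rise under siRelB in this list passed in edgeR or DESeq2, and 0 passed at an unadjusted p under 0.05 in edgeR. SNAI2, a repressor of epithelial genes, had 766 and 801 against 1066 and 1031 under siEZH2, and 928 and 1044 against 634 and 640 under siRelB. FN1, fibronectin, changed by 0.52 ± 0.07 and -0.42 ± 0.09. ZEB1 rose by 1.24 ± 0.05 and fell by 0.45 ± 0.10, a fall lost without replicate 2 of the siRelB control (-0.35). Of 19 epithelial genes, 5 rose and 10 fell under siEZH2 and 0 rose and 7 fell under siRelB. Rises under siRelB in this list numbered 0 in edgeR after adjustment, 4 at an unadjusted p under 0.05 in edgeR and 1 in DESeq2. The difference between both lists was not tested. Of the epithelial genes 6 were called in both and 5 of these fell in both, but 1 of the 6, DSP, kept both calls in every fit that left out 1 library. DSP, the desmosomal plakin, had 8533 and 7980 against 4806 and 4949 under siEZH2, and 2467 and 2563 against 1914 and 1686 under siRelB. EPCAM, an epithelial adhesion molecule, fell by 1.03 ± 0.07 and 0.66 ± 0.15, and its siRelB call was lost without control replicate 1 (-0.56). OCLN, of tight junctions, lost its siRelB call without siRelB replicate 2 (-0.68) or control replicate 2 (-0.57), and PKP3, of desmosomes, without siRelB replicate 1 (-0.40). KRT7, a keratin, lost its siEZH2 call without siEZH2 control replicate 1 (-0.26) or 2 (-0.18) or siEZH2 replicate 1 (-0.11), and its siRelB call without siRelB replicate 1 (-0.27) or 2 (-0.31) or control replicate 1 (-0.22). DSG2, which rose under siEZH2 and fell under siRelB, lost its siRelB call without siRelB replicate 2 (-0.23) or control replicate 2 (-0.22).

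**Figure D4:**
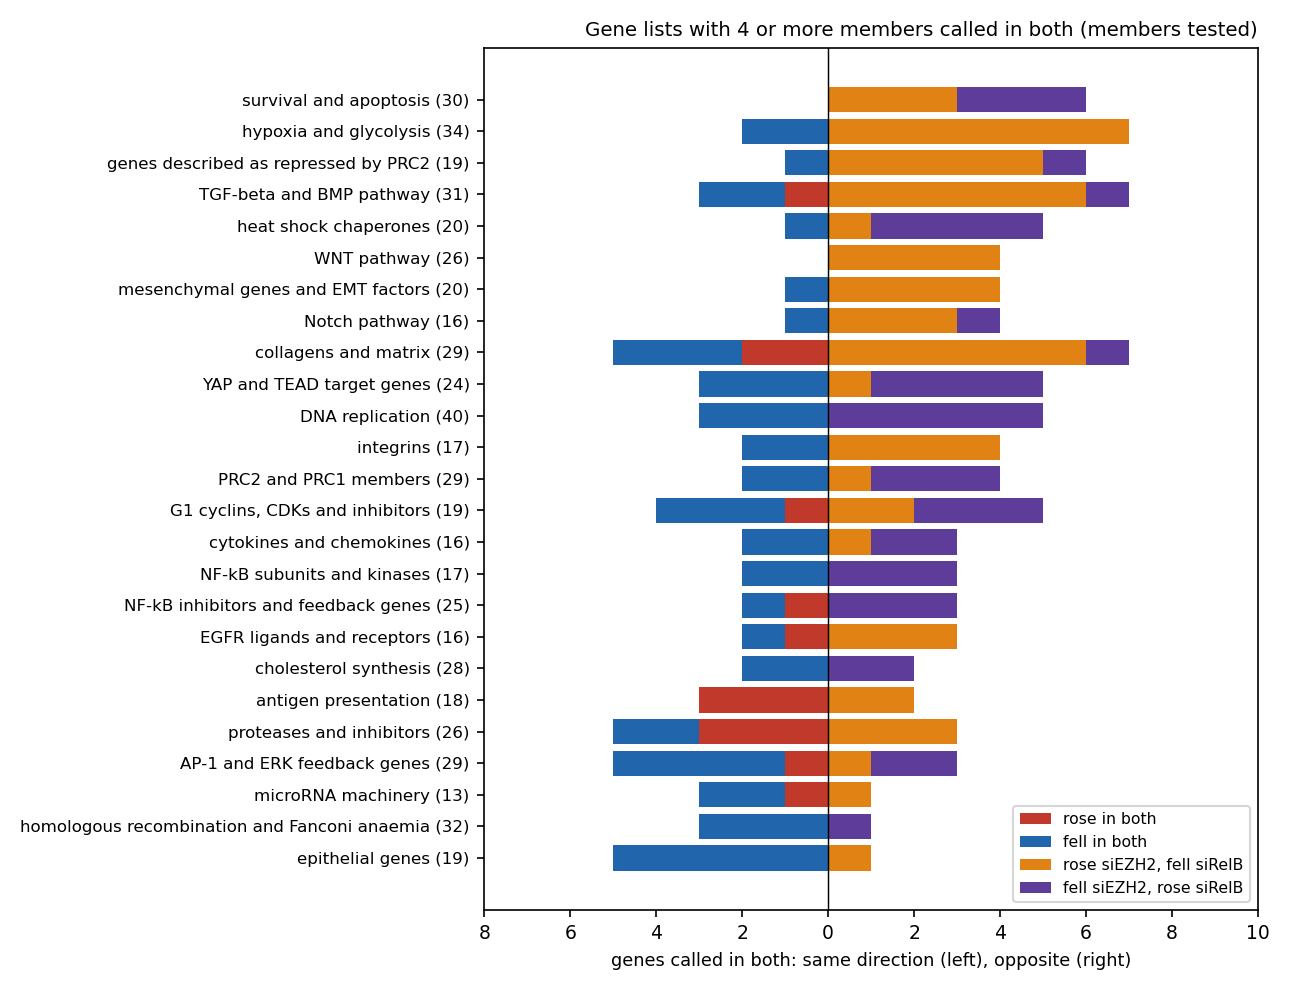
Bars count, for each gene list with 4 or more members called in both comparisons, the members that moved in the same direction (left of 0) and in opposite directions (right of 0), with the number tested in brackets. Hypoxia and glycolysis has 7 of 9 to the right, all of them higher under siEZH2 and lower under siRelB, and epithelial genes have 5 of 6 to the left. When 1 library was left out in turn, 5 of these 9 and 1 of these 6 kept both calls throughout.

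Of 34 tested hypoxia and glycolysis genes, 7 rose under siEZH2 and fell under siRelB, 2 fell in both and 10 were called in neither. In the whole list 16 rose and 6 fell under siEZH2, against 30.5% and 27.8% of all joined genes. Under siRelB 0 rose and 11 fell, against 9.45% and 13.7%. The list's median changes were 0.17 under siEZH2 and -0.21 under siRelB. Rises under siRelB numbered 0 in edgeR and 0 in DESeq2, and 3 at an unadjusted p under 0.05 in edgeR. VEGFA, the angiogenic growth factor, had 4591 and 4712 normalised counts against 6324 and 5874 under siEZH2, and 7267 and 7325 against 4159 and 3827 under siRelB. HIF1A, the oxygen-regulated transcription factor, rose by 0.24 ± 0.05 and fell by 0.88 ± 0.09. P4HA2, which hydroxylates collagen, and PDK1, which limits pyruvate entry to mitochondria, rose by 0.81 ± 0.07 and 0.28 ± 0.06 and fell by 0.61 ± 0.10 and 0.78 ± 0.15. SLC2A3, a glucose transporter, fell in both, from 2273 and 2109 to 1459 and 1396 and from 1872 and 1902 to 1308 and 1136. The other 4 genes called in both did not keep their calls. HK2, the first kinase of glycolysis, lost its fall under siRelB without siRelB replicate 1 (-0.27) or 2 (-0.25) or control replicate 1 (-0.28) or 2 (-0.24). PFKL and PFKP, chains of phosphofructokinase, lost their siEZH2 rise without siEZH2 control replicate 1 (0.22 and 0.19) or 2 (0.31 and 0.20) or siEZH2 replicate 2 (0.10 for each). Both also lost their siRelB fall without siRelB replicate 1 (-0.28 and -0.26) or 2 (-0.35 and -0.33) or control replicate 1 (-0.26 and -0.25). NDRG1, which fell in both, lost its siEZH2 call in each of the 4 fits without a siEZH2 or control library (-0.17 to -0.15).

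Genes described as repressed by PRC2 gave 7 of 19 called in both, of which 5 rose under siEZH2 and fell under siRelB. The whole list had 7 that rose and 6 that fell under siEZH2, with a median of -0.06, against 30.5% and 27.8% of all joined genes. Under siRelB 1 rose and 8 fell, with a median of -0.22, against 9.45% and 13.7%. Whether the list departs from these shares was not tested. TIMP3, an inhibitor of metalloproteases, had 5915 and 5775 normalised counts against 13480 and 12284 under siEZH2, and 7637 and 7864 against 4768 and 4532 under siRelB. TIMP2 changed by 0.29 ± 0.07 and -1.03 ± 0.08, and PPARG, a nuclear receptor of fat metabolism, by 0.42 ± 0.06 and -0.90 ± 0.12. DAB2IP, a brake on RAS signalling, lost its siRelB fall without siRelB replicate 2 (-0.18) or control replicate 1 (-0.27) or 2 (-0.28). NGFR, a neurotrophin receptor, passed the filter on low values only through the 2 siEZH2 libraries, and was not tested under siEZH2 without either of them. The rise of NGFR was thus largely fixed by the filter and is no support for the pattern. DKK1, a secreted inhibitor of WNT, did the reverse, from 13950 and 13620 to 6838 and 7007 and from 4629 and 4762 to 6285 and 7442. SLIT2, a guidance ligand, fell in both (-0.33 ± 0.06 and -1.28 ± 0.16). Of 26 WNT pathway genes 4 were called in both, against 15.1% of all joined genes. All 4 rose under siEZH2 and fell under siRelB, the most frequent pattern over all joined genes too. Of these, 3 kept both calls in every fit that left out 1 library. WNT9A passed the filter on low values only through the 2 siEZH2 libraries, and was not tested under siEZH2 without either of them. Its rise under siEZH2 was thus largely fixed by the filter and is no support for the pattern. The 4 included the receptor FZD6 (0.38 ± 0.05 and -0.58 ± 0.10) and the ligand WNT5B (0.34 ± 0.06 and -0.57 ± 0.12). JAG1, a Notch ligand, followed the same pattern (0.65 ± 0.06 and -0.77 ± 0.09), whereas the receptor NOTCH2 fell in both (-0.71 ± 0.05 and -0.72 ± 0.09). EGFR, the epidermal growth factor receptor, had 5516 and 5265 against 9086 and 8118 under siEZH2, and 6366 and 6941 against 3908 and 3633 under siRelB, while its ligand TGFA fell in both (-0.51 ± 0.07 and -0.82 ± 0.10).

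More replication genes fell than rose under siEZH2. Of 40 tested, 2 rose and 25 fell under siEZH2, against shares of 30.5% and 27.8% over all joined genes. Under siRelB 6 rose and 3 fell, against shares of 9.45% and 13.7%. Of the 8 called in both, 3 kept both calls when 1 library was left out. RRM2, a subunit of ribonucleotide reductase, had 10558 and 9604 against 8479 and 7899 under siEZH2, and 2143 and 1683 against 4224 and 4200 under siRelB. POLA1, the catalytic chain of the polymerase that starts DNA synthesis, fell in both (-1.09 ± 0.06 and -0.57 ± 0.10). All 19 tested G1 cyclins, kinases and inhibitors were called in at least 1 comparison and 9 in both. Over all joined genes, 33.6% were called in neither and 15.1% in both. CCND1, cyclin D1, fell from 14005 and 13644 to 6387 and 6258 under siEZH2 and from 23710 and 23268 to 19703 and 18567 under siRelB. The fall of CCND1 under siRelB was lost without control replicate 1 (-0.29) or siRelB replicate 2 (-0.27). CDKN2C, an inhibitor of the cyclin D kinases, changed by 0.56 ± 0.08 and -0.97 ± 0.11. Of 34 mitotic genes, 2 were called in both, against that share of 15.1%.

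Heat shock chaperones and survival genes included strong opposite responses. Of 20 chaperones and of 30 survival genes, 6 each were called in both, against 15.1% of all joined genes. Among the 6 chaperones, 1 fell in both, 1 rose under siEZH2 and fell under siRelB, and 4 did the reverse. Among the 6 survival genes, 3 rose under siEZH2 and fell under siRelB, and 3 did the reverse. In each list 2 of the 6 kept both calls in every fit that left out 1 library. CHORDC1, a partner of HSP90, had 4305 and 4145 against 2648 and 2757 under siEZH2, and 858 and 982 against 3209 and 3029 under siRelB (difference -2.12 ± 0.10, limma adjusted p = 2.4e-12). MCL1, which blocks apoptosis, had 10104 and 9403 against 6235 and 6420, and 5968 and 6255 against 8443 and 8964. BCL2, of the same list, went the other way (0.24 ± 0.08 and -0.90 ± 0.19). It did not keep its calls in every fit that left out 1 library. Among 24 genes described as targets of YAP and TEAD, 8 were called in both: CCN1 fell in both, from 11594 and 11909 to 6103 and 6599 and from 22262 and 22840 to 12466 and 13430. CRIM1 fell under siEZH2 (-0.25 ± 0.05) and rose under siRelB (0.55 ± 0.09). DUSP6, a phosphatase induced by ERK signalling, also fell and rose (-0.45 ± 0.05 and 0.78 ± 0.08), and in SUM149 it rose under siEZH2 (1.01).

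Interferon-stimulated genes were called mainly under siEZH2. Of 38 tested, 30 rose and 1 fell under siEZH2, against 30.5% and 27.8% of all joined genes. Under siRelB 1 rose and 1 fell, against 9.45% and 13.7%. The list's medians were 0.41 under siEZH2 and -0.05 under siRelB. Some siRelB changes had large standard errors, such as OAS1 (1.32 ± 0.55) and IRF9 (0.87 ± 0.72), so changes there can be missed. IFI6 rose in both, from 120 and 133 to 234 and 219 and from 137 and 147 to 271 and 291. IFIT2 rose under siEZH2 (1.90 ± 0.06) and fell under siRelB (-0.46 ± 0.11), a fall lost without control replicate 2 (-0.43) or siRelB replicate 2 (-0.42). TAP1, the peptide transporter of antigen presentation, rose in both (0.64 ± 0.06 and 0.44 ± 0.09). MMP14, a membrane metalloprotease, had 8358 and 8956 against 18100 and 21038 under siEZH2, and 11891 and 11405 against 17484 and 18063 under siRelB.

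Some large effects were called in 1 comparison only, and for the genes named here the difference between the effects was called. CDH11, a mesenchymal cadherin, had 609 and 610 normalised counts against 4048 and 4403 under siEZH2, and 764 and 701 against 683 and 571 under siRelB (difference 2.55 ± 0.13, limma adjusted p = 1.1e-11). SLC7A11, the cystine transporter, had 11710 and 11617 against 2728 and 2696, and 2017 and 2482 against 2351 and 2095. LOX, which cross-links collagen, had 74 and 64 against 902 and 1055, and 1472 and 1688 against 1379 and 1130. Under siRelB, BMAL2, a paralogue of the clock factor BMAL1, had 3101 and 3429 against 672 and 685, and 4122 and 3956 against 4079 and 3877 under siEZH2. PGM2, a sugar phosphate mutase, had 1055 and 1061 against 3034 and 2943, and 4249 and 4131 against 3977 and 4272 under siEZH2. LEPR, the leptin receptor, fell from 148 and 138 to 46 and 20 under siRelB and had 151 and 141 against 165 and 184 under siEZH2.

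Of the other genes of this kind, SFXN1, a mitochondrial serine carrier, had 1181 and 1154 against 6108 and 6149 under siEZH2, and 4734 and 4659 against 4038 and 3960 under siRelB. The siRelB change of SFXN1 was -0.23 ± 0.08 (edgeR adjusted p = 0.064) and passed with DESeq2 (-0.23) and without the filter on low counts (-0.25). MGAT2, an enzyme of N-glycan synthesis, had 851 and 778 against 3857 and 4212 under siEZH2. CNN2, a calponin, had 7468 and 7596 against 1667 and 1633 under siEZH2. ADM, the vasodilator peptide adrenomedullin, had 2700 and 2550 against 527 and 650 under siEZH2. Its change under siRelB was 0.33 ± 0.16 and not called (edgeR adjusted p = 0.16). Apart from SFXN1, ADM and ID2, the genes in this paragraph are shown for the called comparison only. Under siRelB, PDE4B, which degrades cyclic AMP, had 36 and 32 against 131 and 105. Another 4 genes, called under siRelB only, each lost the call in at least 1 fit that left out a library. ID2, an inhibitor of basic helix-loop-helix factors, had 2.8 and 5.73 against 37 and 27 (2.88 ± 0.78), lost without control replicate 1 (2.45) or 2 (3.45) or siRelB replicate 1 (2.64). The change of ID2 under siEZH2 was 0.09 ± 0.07. ZDHHC11 had 63 and 62 against 118 and 223, lost without siRelB replicate 2 (0.90). THRB, a thyroid hormone receptor, had 33 and 32 against 4.6 and 4.34 (-2.81 ± 0.71), lost without control replicate 1 (-2.79) or 2 (-2.84). TNFAIP8L3 had 37 and 22 against 8.05 and 5.43, lost without control replicate 1 (-1.70) or siRelB replicate 2 (-1.88).

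The SUM149 effects enter no class, but the SUM149 libraries share the estimate of spread behind the siEZH2 calls, so the shares that follow are a description. In SUM149 cells 75.3% of the genes that rose under siEZH2 and fell under siRelB also rose under siEZH2, against 67.9% of all genes that rose under siEZH2 in MDA-MB-231. For genes that fell under siEZH2 and rose under siRelB, 74.1% fell in SUM149, against 69.5% of all falling genes. The genes that fell in both had the lowest share, 61%, and 7.51% of them rose in SUM149, against 3.68% of all falling genes. For genes that rose in both the share was 67.7%. ITGA3 was among the genes that reversed, and RELB among those that fell in both lines.

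Gene span, which no class used, followed the direction under siRelB. The median span of the canonical transcript was 57.6 kb for genes that rose under siEZH2 and fell under siRelB, 45.0 kb for genes that fell in both and 54.6 kb for genes that fell under siRelB only. It was 25.5 kb for genes that rose in both, 20.5 kb for genes that fell under siEZH2 and rose under siRelB and 21.7 kb for genes that rose under siRelB only. Over all joined genes it was 28.7 kb. The genes that rose or fell under siEZH2 only had medians of 28.3 and 28.7 kb. Among the named genes, TGFBR3 of the first class spans 206 kb and OSTM1 33.3 kb, and TFAM of the reverse class spans 13.8 kb, at 58385345 to 58399220 on chromosome 10. The siRelB libraries held 18.6 and 19.7 M counts and their controls 24.0 and 23.2 M, and the part of depth or RNA quality in this pattern was not tested.

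**Figure D5:**
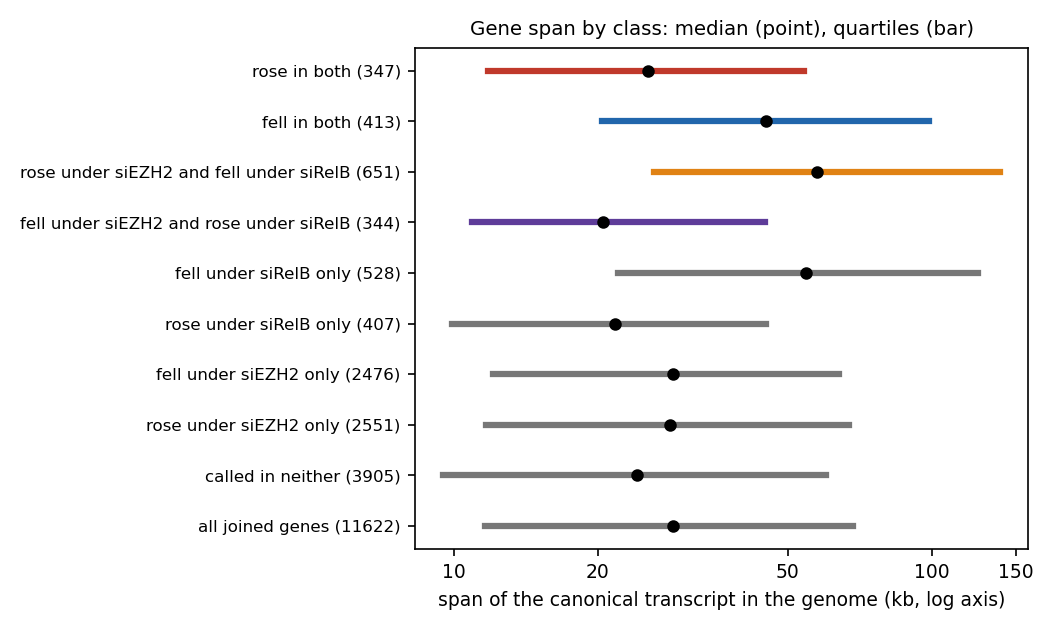
Points give the median span in the genome of the canonical transcript, in kb on a log axis, for each class of genes, and bars reach from the lower to the upper quartile. The 3 classes that fell under siRelB have medians of 45.0 to 57.6 kb and the 3 that rose have medians of 20.5 to 25.5 kb.

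Promoters were searched for 1 form of the kB motif bound by NF-kB, GGGNNTTTCC, on both strands, from 250 bases before to 50 bases after the start in RefSeq. Only symbols with a single promoter entry were searched. The motif was in 1.93% of 22114 promoters and in 2.43% of the 6697 joined genes with such an entry. Of the genes that fell under siEZH2 and rose under siRelB, 217 had an entry and 9 of these had the motif (4.15%). The shares were 2.55% (5 of 196) for genes that rose in both and 1.79% (4 of 223) for genes that fell in both. For genes that rose under siEZH2 and fell under siRelB the share was 2.18% (7 of 321). A match is a description of the letters and not a bound site. Examples from each class, chosen after their values were seen, are shown on the strand that carries the match (RefSeq, GRCh38.p14). Capitals mark 1 match per promoter, and TNFAIP3 had 2 matches. The examples show the motif within the searched window of genes with different responses. The matches of RC3H2 and STARD3 lie 229 and 232 bases before the start.
IL6 (fell under siEZH2 and rose under siRelB, chr7:22727117-22727146): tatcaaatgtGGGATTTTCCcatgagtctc
TNFAIP3 (fell under siEZH2 and rose under siRelB, chr6:137867194-137867223): ttgtaggcccGGGGATTTCCacgggacttt
RC3H2 (fell under siEZH2 and rose under siRelB, chr9:122905569-122905598): tgaatgtgcaGGGAATTTCCcatcaatccc
STARD3 (rose under siEZH2 and fell under siRelB, chr17:39636902-39636931): agggaaaaagGGGAATTTCCcgaggggagt
CNTNAP1 (rose in both, chr17:42682441-42682470): cgggttacttGGGGTTTTCCcggtggcgag
PHLDA1 (fell in both, chr12:76031739-76031768): cattaacttgGGGCCTTTCCaaagcccgct
RC3H2, a regulator of mRNA decay, changed by -0.31 under siEZH2 and 1.25 under siRelB, and STARD3, a lipid transfer protein whose promoter holds the letters GGGAATTTCC as RC3H2 does, changed by 0.32 and -1.18. CNTNAP1 rose by 0.36 and 0.97. PHLDA1, whose match lies 18 bases after the start, fell from 13298 and 12604 to 10610 and 9684 and from 12303 and 12290 to 7303 and 6693. TNFAIP3, a feedback inhibitor of NF-kB, was near the threshold in both comparisons (limma adjusted p = 0.039 and edgeR adjusted p = 0.049). Its siRelB call was lost with DESeq2 (0.53), and its calls were lost in 3 fits each, without siEZH2 control replicate 2 (-0.08) or siEZH2 replicate 1 (-0.22) or 2 (-0.17), and without siRelB replicate 1 (0.40) or its control replicate 1 (0.57) or 2 (0.47).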

How the data were processed

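The siRelB experiment was deposited by the authors as raw read counts per gene. For it the submitters' processing notes list DESeq2 1.20.0, featureCounts 1.5.0-p3 and HISAT2 2.0.5, with build hg19. The authors deposited the siEZH2 experiment on a log2-like, variance-stabilised scale, with Salmon, STAR 2.5.2b, cutadapt and DESeq2 in the notes. No source used here states the annotation, strand or transformation settings, so antisense and overlapping genes cannot be separated. The variance-stabilised values were inverted to normalised counts from their lowest value, 7.12, and 87.7 to 91.0% of low values then lay close to a whole number of reads (within 10% of 1 read).

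Tables were joined by symbol (24929 symbols, 1067 of the 27315 through an older symbol). Counts were tested with edgeR 4.0.16 (quasi-likelihood, TMM, filterByExpr, all 6 libraries, 15930 genes, 3 residual degrees of freedom). Variance-stabilised values were tested with limma 3.58.1 (variance trend, all 8 libraries, with 2 or more libraries exceeding the table's lowest value by 1, 12356 genes, 4 residual degrees of freedom). The difference of effects used limma on all 14 libraries on the common scale (7 residual degrees of freedom). P-values were adjusted by Benjamini-Hochberg over each whole table. R was 4.3.3 and Python 3.11.15. Fits were tested on simulated data. A first pass mark that mixed sizes of change was missed and was redefined per size after this was seen: smaller changes were missed more often, none was called in the wrong direction, and siEZH2 changes came out smaller than simulated on the variance-stabilised scale. Alternatives were DESeq2 1.42.0, no filters, recovered counts, only the MDA-MB-231 libraries, a replicate block and leaving out each library.

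The genes compared and the gene lists were chosen with earlier results of these data known. Named genes were, by rule, the first 8 protein-coding genes of each same-direction class and the first 6 of each opposite class by the worse of their 2 ranks of change, the 4 largest per direction called in 1 comparison only with a called difference, the NF-kB subunits and EZH2, and up to 4 members of each list called in both. Spans are from GENCODE v44 on GRCh38. The chromatin libraries were not used here.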

Additional observations from a re-analysis of the deposited data

How the results depend on the processing

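Counts in this paragraph are given in the order rose in both, fell in both, rose under siEZH2 and fell under siRelB, fell under siEZH2 and rose under siRelB. Requiring a change of at least the log2 of 1.5 in both, on the scale of each test, left 32, 21, 92 and 17 genes. Keeping the class in each of the 8 leave-one-out fits, chosen after seeing the data, left 88, 135, 268 and 81. Leaving out 1 library gave 185 to 314, 235 to 385, 387 to 612 and 162 to 314, with 1520 to 2262 genes called under siRelB (2913 with all libraries), 5387 to 6135 under siEZH2 (6990) and 4625 to 5297 differences (5551). Replicate numbers did not pair the libraries (correlations of deviations from -0.207 to 0.0879), and a fit with the replicate block gave 336, 379, 620 and 319. Each class count stayed within 1.5 times its main value with DESeq2, without either filter, with recovered counts and with only the MDA-MB-231 libraries. Uncalled effects near 0 changed sign without a library: MGAT2 (-0.53 to 0.31), SLC7A11 (-0.16 to 0.13) and REL (-0.09 to 0.06) under siRelB, and PGM2 (-0.07 to 0.03) and BMAL2 (-0.06 to 0.01) under siEZH2. The called differences of CHIC1 (0.28) and TAP1 (0.21) did not pass with recovered counts in edgeR. With 2 libraries per group, small changes can be missed, and a gene not called is not shown to be unchanged.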
